A study of Mus musculus with 90 samples.

Results

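Cytosolic ribosomal proteins are the protein part of the ribosome that translates nuclear-encoded messages. Members were taken as every gene whose symbol is Rpl or Rps with a number, or Rplp0, Rplp1, Rplp2 or Rpsa, that has a probe set naming that gene alone. S6 kinases and pseudogenes were left out, and each gene was read from its brightest such probe set. This gave 50 of the 18194 genes on the arrays. Of these, 43 are core ribosomal proteins, 22 of the large and 21 of the small subunit. Another 6 are paralogs (Rps27l, Rpl22l1, Rpl7l1, Rps4l, Rpl39l and Rpl3l), and Rps19bp1 encodes a protein that binds Rps19 and is not itself a ribosomal protein. A further 31 ribosomal proteins, found only on probe sets that name several genes, were not analysed here.

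The large subunit holds the peptidyl transferase centre, and the small subunit decodes the message. Messages of ribosomal proteins commonly start with a run of pyrimidines, the terminal oligopyrimidine or TOP motif, through which mTORC1 and Larp1 control their translation. The genes are transcribed at high levels in most growing cells, and their proteins are made in matched amounts because each ribosome carries a single copy of most of them.

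The series holds 90 subcutaneous melanoma allografts, all labelled with the genotype Hgftg;Cdk4R24C/R24C and the strain B6.cBrd, each profiled as bulk RNA on 1 array in either study 2 or study 3. Treated mice received clone 80, a mouse antibody of the mIgG1 D265A format against PD-L1, labelled as 10 mg/kg, while the design text also names 20 mg/kg. Their tumours were grouped by outcome. Stabilization (3 tumours, study 3) meant no volume change between consecutive measurements, and growth delay (2 tumours, study 2) a tumour that appeared only after treatment. Relapse (3 tumours in each study) meant regrowth after regression below a measurable volume. Responders (17 in study 2 and 10 in study 3) had lost at least 5% of their volume, and non-responders (14 and 9) had grown. Controls received mouse IgG1 D265A (14 and 8 tumours) or PBS at 10 ml/kg (3 and 4 tumours). Animal ages were not given in the sources used here. Responders were taken after 2 to 12 doses and non-responders at matching times, but the number of doses of each tumour was not used here, so timing was not tested. In a bulk tumour, fewer cells of a type and less RNA per cell cannot be told apart.

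Promoter windows from RefSeq (GRCm38.p6) are shown for members that carry the results below, to set the pyrimidine run near the start site beside the direction of the gene. Each window covers the 30 bases before the annotated start and the first 20 bases from it. Capitals mark a run of at least 8 pyrimidines that overlaps the 20 bases on either side of the start. The first 5 genes were lower in responders than in non-responders, and the last 3 did not pass the test.
Rpl14 (chr9:120571487-120571536, plus strand): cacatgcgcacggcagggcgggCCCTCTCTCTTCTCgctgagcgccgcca
Rps25 (chr9:44407684-44407733, plus strand): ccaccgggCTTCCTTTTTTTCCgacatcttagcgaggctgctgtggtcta
Rps27 (chr3:90213629-90213678, minus strand): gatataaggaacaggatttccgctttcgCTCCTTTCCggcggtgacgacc
Rps6 (chr4:86857348-86857397, minus strand): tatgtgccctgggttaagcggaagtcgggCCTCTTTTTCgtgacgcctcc
Rps19 (chr7:24884562-24884611, plus strand, 1 of its 3 annotated starts): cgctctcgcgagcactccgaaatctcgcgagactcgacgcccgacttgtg
Rpl4 (chr9:64173357-64173406, plus strand): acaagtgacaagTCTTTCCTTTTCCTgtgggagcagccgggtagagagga
Rplp2 (chr7:141447621-141447670, plus strand): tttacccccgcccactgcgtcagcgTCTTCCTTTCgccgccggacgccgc
Rps28 (chr17:33824543-33824592, minus strand): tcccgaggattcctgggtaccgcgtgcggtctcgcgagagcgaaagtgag

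Long runs occur both in genes that were lower in responders (Rpl14, Rps25) and in genes that did not pass the test (Rpl4, Rplp2), and Rps19 was lower with no run in its window. The runs of Rps25 (-22 to -9) and Rpl4 (-18 to -5) lie wholly before the annotated start, so they are not part of the annotated message. The counts below include such runs and are not counts of TOP motifs. RefSeq windows matched 44 of the 50 members, 38 of them core; those without a window were Rps29, Rps20, Rpl8, Rpl7, Rps14 and Rps4l. A run was present in 20 of the 38 core genes (52.6%), against 23.7% of all 27025 genes in the table. It was present in 13 of the 25 core genes that were lower in responders and in 7 of the 13 that were not called. The motif CCGGAAG, the binding sequence of ETS family factors, was searched on both strands, from 250 bases before the start to 50 after it. Its reverse complement, CTTCCGG, opens with pyrimidines and so can overlap a run. It was found in 19 of the 38 core genes, against 9.9% of all genes. It was found in 13 of the 25 lower genes and 6 of the 13 not called. Both motifs were thus more common in core promoters than in the table as a whole, and close in share between the genes that moved and those that did not.

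The arrays place most core genes near the top of the scale. For 34 of the 43 core genes, the log2 level averaged over 90 arrays was above 13, while the highest value on any array was 14.84. The other 9 probe sets (Rps25, Rpl27a, Rps6, Rpl37, Rpl12, Rpl14, Rps27, Rpl39 and Rps16) read lower. That of Rps16 averaged 3.36, near the lowest array value of 2.19. Core genes varied little: the median SD over the 90 tumours was 0.13 on the log2 scale, against 0.26 for all genes and 0.31 for the brightest 10% of genes. The median range between the lowest and highest group means was 0.24 for core genes and 0.56 for all genes. Compression near the top of the scale was not tested as a source of this narrow spread.

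Averaged over the 43 core genes, the tumours separated modestly by outcome. In study 2 the core mean was 12.51 ± 0.05 in growth delay (SD, n = 2), 12.48 ± 0.08 in relapse (n = 3), 12.49 ± 0.09 in responders (n = 17) and 12.58 ± 0.10 in non-responders (n = 14). Control tumours of study 2 averaged 12.62 ± 0.13 with IgG (n = 14) and 12.67 ± 0.05 with PBS (n = 3). In study 3 the core mean was 12.50 ± 0.20 in stabilization (n = 3), 12.55 ± 0.03 in relapse (n = 3), 12.58 ± 0.20 in responders (n = 10) and 12.76 ± 0.06 in non-responders (n = 9). Control tumours of study 3 averaged 12.72 ± 0.09 with IgG (n = 8) and 12.77 ± 0.09 with PBS (n = 4). In each study the responder mean lay below the non-responder mean by less than 1 SD of the responders, and the ranges overlapped. Across groups, 19 core genes had their lowest group mean in study 3 stabilization and 16 their highest in study 3 PBS. These groups hold 3 and 4 tumours, and the same counts were not made over all genes. Stabilization replicates 1 and 2 had melanocyte marker means of 6.94 and 8.75. One PBS array had a mean difference between 3′ and 5′ control probe sets of 5.20.

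**Figure D1:**
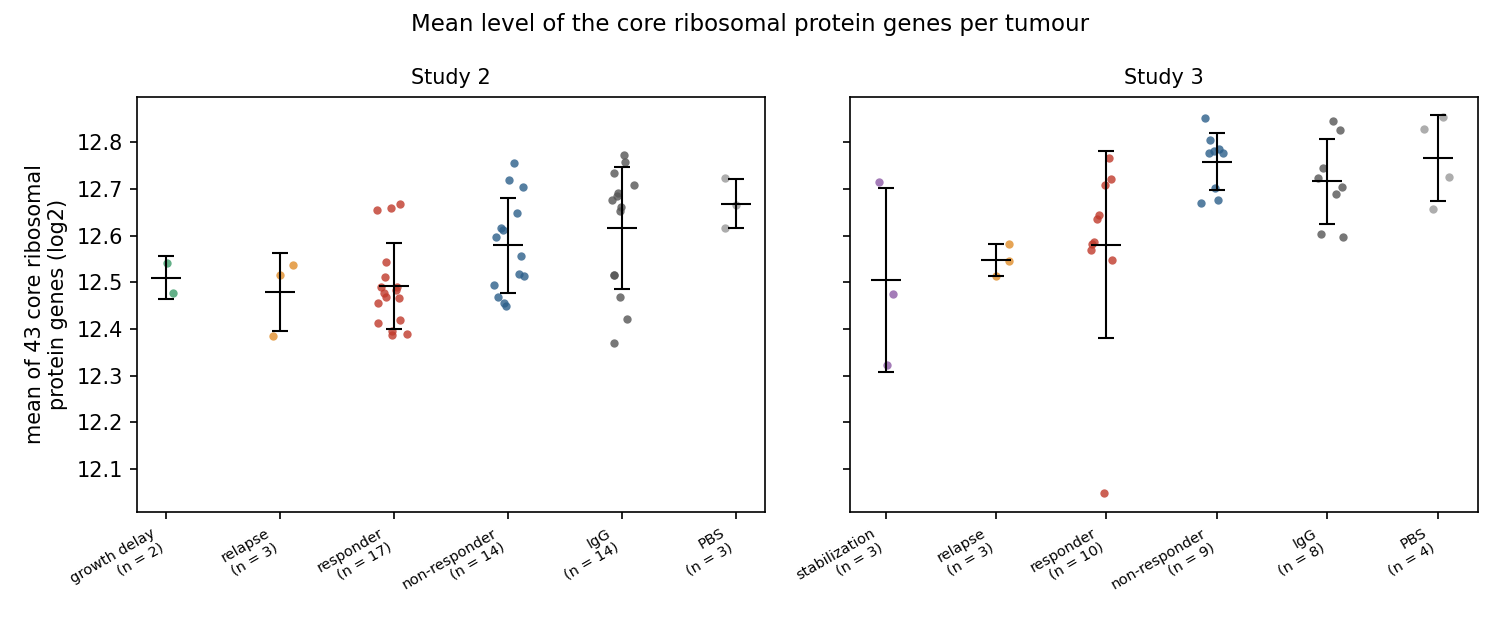
Mean log2 level of the 43 core ribosomal protein genes in each tumour (points), by outcome group in study 2 (left) and study 3 (right), with the group mean and SD (bars). Responders average 12.49 in study 2 and 12.58 in study 3, against 12.58 and 12.76 in non-responders, and the lowest point is a study 3 responder at 12.05.

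A single tumour stands apart. Study 3 responder replicate 4 had a core mean of 12.05, while the next lowest responder of that study had 12.55. It also had the highest skeletal muscle marker mean of its group (13.64), a macrophage marker mean of 11.48, a fibroblast marker mean of 12.42 and a melanocyte marker mean of 6.65. Melanocyte markers averaged below 9 in 5 tumours, which were study 2 non-responder replicate 14, study 3 responder replicates 3 and 4, and study 3 stabilization replicates 1 and 2. All other tumours had a melanocyte mean of at least 9. Results are therefore given with and without these tumours where they differ.

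Responders had lower levels of ribosomal protein genes than non-responders. Over both studies, 28 of the 43 core genes were lower and 0 were higher (limma, Benjamini-Hochberg over 18194 genes, adjusted p below 0.05). With the paralogs, 31 of the 50 members were lower and 1 was higher, while 32.3% of all genes were lower and 18.9% were higher. Among the brightest 10% of genes 36.0% were lower. The differences were small, with a median log2 fold change of -0.09 for core genes and -0.06 for all genes, and 38 of the 43 core genes lay below 0. Both subunits took part, with 14 of 22 large subunit and 14 of 21 small subunit genes lower. The core probe sets that read below 13 had a median of -0.31 with 7 of 9 lower, and those above 13 a median of -0.08 with 21 of 34 lower; this difference was not tested. Without study 3 responder replicate 4, 23 members were lower and 1 was higher, so that 24 of 50 (48%) were called in a fit that called 45% of all genes. Without the 5 tumours low in melanocyte transcripts described above, 25 (50%) were called, beside 47.1% of all genes. In that fit 5452 of all genes (30%) were lower and 3125 were higher. The full fit called 64% of members and 51.2% of all genes. These called shares count both directions. Nearly all members called in the full fit and without replicate 4 were lower, and the direction of the 25 called without the 5 tumours is not given here.

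In the large subunit, Rpl14 differed most among the chosen probe sets. Rpl14 and Rpl12 are read from dimmer probe sets, with means of 8.63 and 9.05. As given above, the dimmer core probe sets had the larger median difference. In study 2 the log2 level of Rpl14 ran from 7.36 to 8.90 in responders (median 8.08) and from 7.30 to 9.41 in non-responders (median 8.44). In study 3 it ran from 6.41 to 9.67 in responders (median 8.61) and from 8.91 to 10.19 in non-responders (median 9.64). The groups overlapped in both studies, although most study 3 responders lay below the lowest non-responder. The log2 fold change over both studies was -0.72 ± 0.17 (SE; limma adjusted p = 0.00116), a ratio of 0.609. Rpl12, part of the stalk base that contacts translation factors, was lower, with a log2 fold change of -0.45 ± 0.15 (limma adjusted p = 0.00960). In study 3 Rpl12 had a median of 8.90 in responders and 9.66 in non-responders. Rpl6, Rpl11 and Rpl19 differed less, at -0.13, -0.13 and -0.09, and passed with limma adjusted p-values of 0.000708, 0.00576 and 0.00292. Rpl11 is known for binding Mdm2 when ribosome assembly is disturbed.

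In the small subunit, Rps25, which lies in the head of the subunit and serves internal ribosome entry, had the largest difference among the chosen probe sets of core genes. Rps25, Rps6 and Rps27 are also read from dimmer probe sets. Dimmer probe sets of Rps3, not chosen, gave -0.63 and -0.13, while the chosen probe set gave -0.15. The study 2 level of Rps25 ran from 10.00 to 12.05 in responders (median 10.32) and from 10.05 to 12.25 in non-responders (median 10.83). In study 3 it ran from 9.56 to 11.83 in responders (median 11.03) and from 10.96 to 12.30 in non-responders (median 11.90). Responders sat lower in both studies, with overlapping ranges. The log2 fold change was -0.59 ± 0.17 (limma adjusted p = 0.00483). Rps6, the substrate of S6 kinase, ran in study 3 from 9.06 to 10.50 in responders (median 10.16) and from 10.36 to 10.80 in non-responders (median 10.47). Its log2 fold change over both studies was -0.31 ± 0.07 (limma adjusted p = 0.000589). Rps27 was lower, at -0.34 ± 0.09 (limma adjusted p = 0.00187). Rps19, the gene most often mutated in Diamond-Blackfan anaemia in humans, was lower, at -0.26 ± 0.06 (limma adjusted p = 0.00125). The Rps16 probe set, near the bottom of the scale, gave -0.30 ± 0.06 (limma adjusted p = 0.000174).

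**Figure D2:**
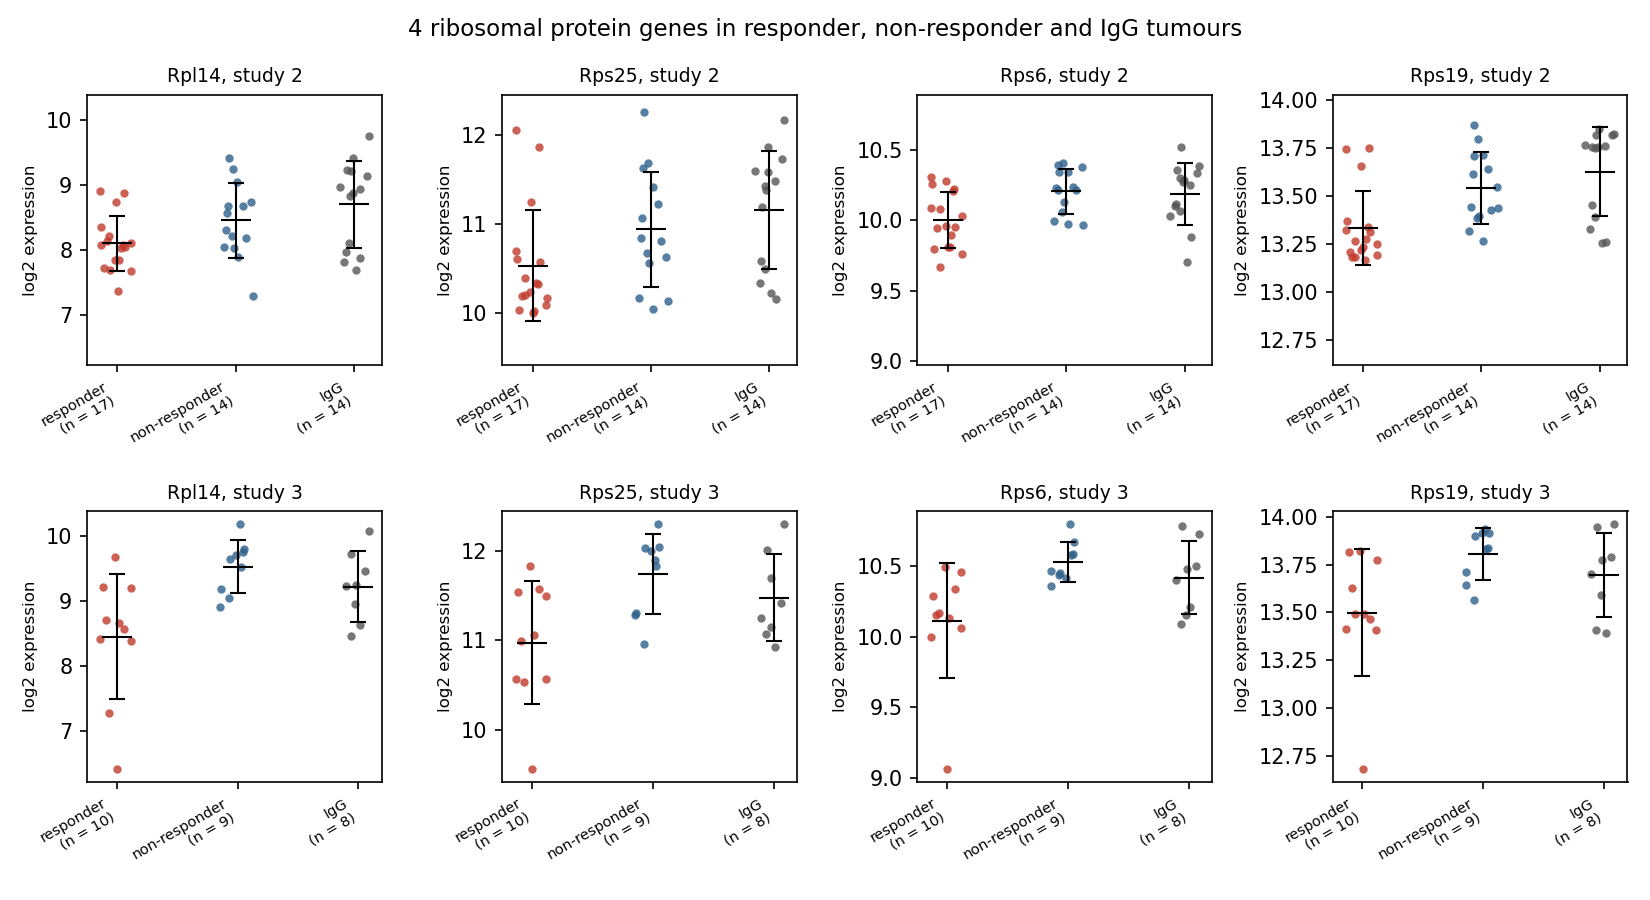
Log2 expression of Rpl14, Rps25, Rps6 and Rps19 in each responder, non-responder and IgG tumour (points) of study 2 (top) and study 3 (bottom), with group mean and SD (bars). Responder means lie below non-responder means in all 8 panels, for example 8.45 against 9.53 for Rpl14 in study 3, and the ranges overlap.

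Other core genes did not pass. Rps2, Rplp2, Rps20, Rpl4 and Rplp0 are read from probe sets above 13, where compression was not tested, so their intervals describe these probe sets only. Rps2, at the entry of the message channel, had a log2 fold change of 0.00 with a 95% interval from -0.05 to 0.05 (limma adjusted p = 0.966). Rplp2, an acidic stalk protein, had -0.01 with an interval from -0.05 to 0.03. The chosen probe set of Rps20 had 0.00 with an interval from -0.06 to 0.07. Another Rps20 probe set, with a mean of 13.14, gave 0.02, while those with means of 6.36 and 5.65 gave -0.32 and -0.38. The largest positive fold change among core genes was that of Rpl4, at 0.05 with an interval from -0.04 to 0.14. Rplp0, a gene often used to normalize expression, had -0.05 with an interval from -0.10 to 0.01 (limma adjusted p = 0.125). Rpl27a had -0.12 with a wide interval, from -0.40 to 0.17.

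**Figure D3:**
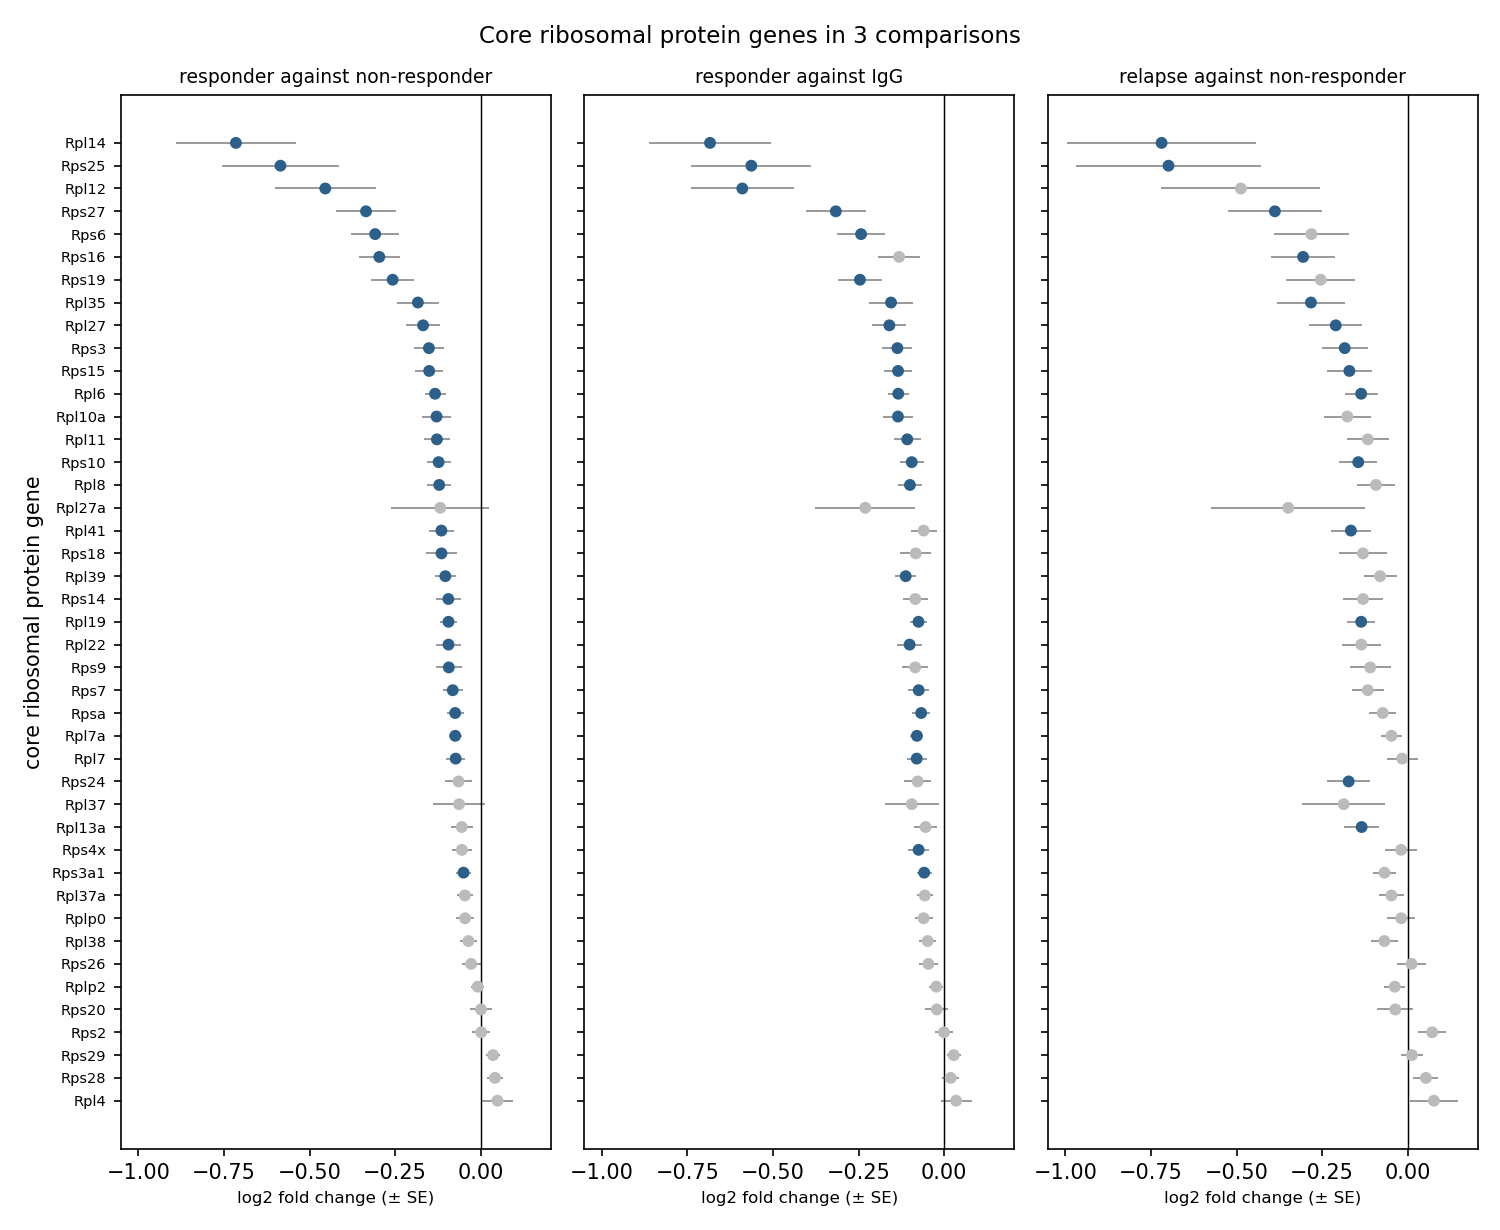
Log2 fold change (points) and SE (bars) of the 43 core genes for responder against non-responder, responder against IgG and relapse against non-responder, sorted by the first. Blue points are lower with a limma adjusted p below 0.05 and grey points did not pass; Rpl14 leads the first panel at -0.72 and Rpl4 closes it at 0.05.

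Where a gene had further probe sets, most pointed the same way. Of the 95 single-gene probe sets of core genes, 83 lay below 0 in responders against non-responders. Among the 52 not chosen, 45 lay below 0. The median over all genes was also below 0 in this comparison. Probe sets of the same gene read the same tumours and are not independent. Of the 22 core genes with more than 1 probe set, 17 had all of them below 0, 4 had both signs and 1, Rps29, had all of them above 0. For Rps24, the chosen probe set gave -0.06 and another gave -0.42. Dim probe sets did not all differ more. The dimmest of Rps10, Rps18, Rps9 and Rpl35 gave -0.02, 0.10, 0.03 and -0.02, while those of Rps24 and Rpsa gave -0.23 and -0.215.

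The studies differed in how many genes passed. In study 3, 19 members were lower and 2 were higher in responders than in non-responders, against 22.4% of all genes lower and 14.4% higher. In study 2 a single member passed, Rps15 at -0.17 ± 0.05 (limma adjusted p = 0.0477), while 2.63% of all genes passed in either direction. The study 2 count depended on the processing, with 19 members (16.8% of all genes) under median centring and 28 (42.6%) under array weights. The difference between the studies was itself tested, and 0 members and 0% of all genes passed (limma); 3 members had an unadjusted p below 0.05, namely Rps16, Rps29 and Rpl14. Rpl14 was at -1.08 ± 0.27 in study 3 and -0.35 ± 0.22 in study 2. Rps25 (-0.77), Rpl12 (-0.69) and Rps27 (-0.48) were also lower in study 3. The Rps16 probe set gave -0.49, a size that cannot be read as a fold so near the bottom of the scale. Rps25 and Rpl12 did not pass without responder replicate 4 (limma adjusted p = 0.0809 and 0.0625). The study 3 count rested partly on few tumours. Without responder replicate 4, 5 members (10%) passed, beside 22.5% of all genes. Without the tumours low in melanocyte transcripts, 4 members (8%) passed, beside 12.5% of all genes. Members were thus called less often than all genes in both fits. The full fit called 42% of members and 36.7% of all genes. In study 2, 11 members passed without those tumours, a share of 22% beside 24.9% of all genes. These shares count both directions. Without those tumours, 15% of all genes were lower in study 2 and 6.25% in study 3. Rps29 was higher in study 3 responders by 0.08 ± 0.03 (limma adjusted p = 0.0291), but gave -0.022 when each array was centred on its median and did not pass without responder replicate 4 (limma adjusted p = 0.0512).

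Against IgG controls, 24 of 43 core genes and 26 of 50 members were lower in responders and 0 were higher. Among all genes 20.1% were lower and 15.3% higher. This comparison shares its responders with the one above. The IgG and antibody-treated tumours carry separate ranges of numbers in their titles, which adjoin in study 2. The titles do not say what the numbers stand for. Any batch tied to them cannot be told apart from treatment. Rpl14 ran from 7.69 to 9.75 in study 2 IgG tumours (median 8.90) and from 8.46 to 10.07 in study 3 IgG tumours (median 9.23). The log2 fold change of Rpl14 was -0.68 ± 0.18 (limma adjusted p = 0.00348), that of Rpl12 -0.59 ± 0.15 (limma adjusted p = 0.00295) and that of Rps25 -0.56 ± 0.18 (limma adjusted p = 0.0113). Rps27, Rps19 and Rps6 gave -0.32, -0.25 and -0.24, all lower. Rps19bp1 gave -0.19 and did not pass without study 3 responder replicate 4 (limma adjusted p = 0.0800). Rps25 did not pass without the 5 tumours low in melanocyte transcripts (limma adjusted p = 0.0509). The count was 13 without study 3 responder replicate 4 (26.5% of all genes) and 10 without the 5 tumours low in melanocyte transcripts (21.4% of all genes). In both fits the share of members was close to that of all genes when both directions were counted. By direction, 2013 of all genes (11.1%) were lower and 1886 higher without those 5 tumours. The direction of the 10 members called in that fit is not given here. In the full fit every called member was lower, beside 20.1% of all genes lower and 15.3% higher. In the same comparison 8 of 10 macrophage, 9 of 10 T cell and 4 of 10 fibroblast genes were higher and 5 of 14 melanocyte genes were lower. With the macrophage list as a covariate 0 members passed (limma), against 0.676% of all genes.

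Non-responders and IgG tumours were not separated by any member. Here 0 members passed (limma), with 1 at an unadjusted p below 0.05 (Rps16), and 0.0055% of all genes passed. Rpl14 had a log2 fold change of 0.03 with a 95% interval from -0.33 to 0.40, and Rps6 one of 0.07 with an interval from -0.08 to 0.21. IgG against PBS likewise gave 0 members (limma; 1 at an unadjusted p below 0.05, Rps18) with 0.0055% of all genes called. The IgG and PBS tumours also carry separate ranges of title numbers. One study 3 PBS array had a mean difference between 3′ and 5′ control probe sets of 5.20, while the next highest of all arrays was 0.93, and its part was not tested.

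In the full fit, some ribosomal protein genes were lower in relapsed tumours than in non-responders, and no member separated relapsed tumours from responders. In relapse against responder 0 members and 0% of all genes passed (limma; 0 members at an unadjusted p below 0.05). Against non-responders, 15 members were lower and 0 higher, 14 of them core, while 14.1% of all genes were lower and 9.96% higher. Rpl14 measured 7.79, 8.10 and 8.30 in study 2 relapses, against a non-responder range of 7.30 to 9.41. In study 3 the relapses measured 8.35, 8.37 and 8.71, all below the non-responder range of 8.91 to 10.19. The log2 fold change was -0.72 ± 0.28 (limma adjusted p = 0.0472). Rps25 gave -0.70 ± 0.27 (limma adjusted p = 0.0494) and Rps27 gave -0.39 ± 0.14 (limma adjusted p = 0.0355). The Rps16 probe set gave -0.31 ± 0.09 (limma adjusted p = 0.0221), again near the bottom of the scale. With 6 relapsed tumours the count was fragile, since leaving out any 1 of them brought it to between 0 and 8. The shares of all genes in those fits are not given here. The count also moved with the normalization and the threshold, as listed in the last section. Without study 3 responder replicate 4, which enters only the shared spread, the count was 23, beside 27.4% of all genes. Without the 5 tumours low in melanocyte transcripts it was 25, beside 41.3%. Both shares of all genes count both directions, and 23.4% of all genes were lower without the 5 tumours. In the same comparison 6 of 10 fibroblast genes (Col1a1 at 1.93) and 5 of 10 macrophage genes (Csf1r at 1.37) were higher, and of 10 T cell genes 2 were higher and 1 was lower. With the macrophage list as a covariate 0 members passed (limma), against 4.75% of all genes. The part of these cell types in the relapse result was not tested.

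Stabilized and growth-delayed tumours gave no calls in the fit used throughout. In stabilization against responder in study 3, 0 members passed (limma; 0 at an unadjusted p below 0.05), against 0.11% of all genes. With array weights, which did not converge, 34 members passed, beside 63.3% of all genes, and without stabilization replicate 3 a single member passed. Rpl14 measured 7.27, 7.76 and 9.34 in the stabilized tumours, and the low pair are those with melanocyte means below 9. In growth delay against IgG in study 2, 0 members and 0% of all genes passed (limma), with 4 members at an unadjusted p below 0.05 (Rps14, Rpl38, Rpl27a and Rps2). The growth delay group has only 2 tumours. Over all groups of both studies, a moderated F test called 24 of the 50 members, against 50.1% of all genes, so members were called about as often as other genes. The largest F values were those of Rps16, whose probe set reads near the bottom of the scale, and of Rps27, Rpl14, Rpl12, Rps15 and Rpl39.

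The paralogs did not move as a block. Rps27l, a p53-regulated relative of Rps27, was lower in responders than non-responders, at -0.31 ± 0.10 (limma adjusted p = 0.0103) and against IgG, at -0.27 ± 0.10 (limma adjusted p = 0.0330). Relapses were lower than non-responders, at -0.43 ± 0.16 (limma adjusted p = 0.0406). Rpl7l1 was lower in responders, at -0.33 ± 0.12 (limma adjusted p = 0.0236). Rpl22l1, a paralog of Rpl22, gave -0.23 ± 0.11 and did not pass (limma adjusted p = 0.0703). Rps19bp1 was lower, at -0.24 ± 0.07 against non-responders (limma adjusted p = 0.00517). In study 3 alone, Rps27l gave -0.47, Rps19bp1 -0.33 and Rps4l 0.86, and all passed, while in study 2 none of the 7 non-core members did. Without responder replicate 4, Rps4l did not pass in study 3 (limma adjusted p = 0.0802).

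Rps4l was the sole member that was higher in responders over both studies. In study 2 its log2 level ran from 4.15 to 7.82 in responders (median 5.91) and from 4.41 to 7.58 in non-responders (median 5.50). In study 3 it ran from 5.82 to 8.23 in responders (median 6.91) and from 5.72 to 6.63 in non-responders (median 6.00). The groups overlapped in both. The log2 fold change was 0.59 ± 0.20 (limma adjusted p = 0.0129), and with the macrophage list as a covariate it was -0.20. Rpl39l and Rpl3l gave 0.16 ± 0.26 and 0.09 ± 0.26 and did not pass (limma adjusted p = 0.602 and 0.778). Rpl3l, a paralog of Rpl3 that is made in skeletal and heart muscle, reached 9.71 in study 3 responder replicate 4, against a median of 4.02 in that group, and the same tumour had the skeletal muscle mean of 13.64.

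**Figure D4:**
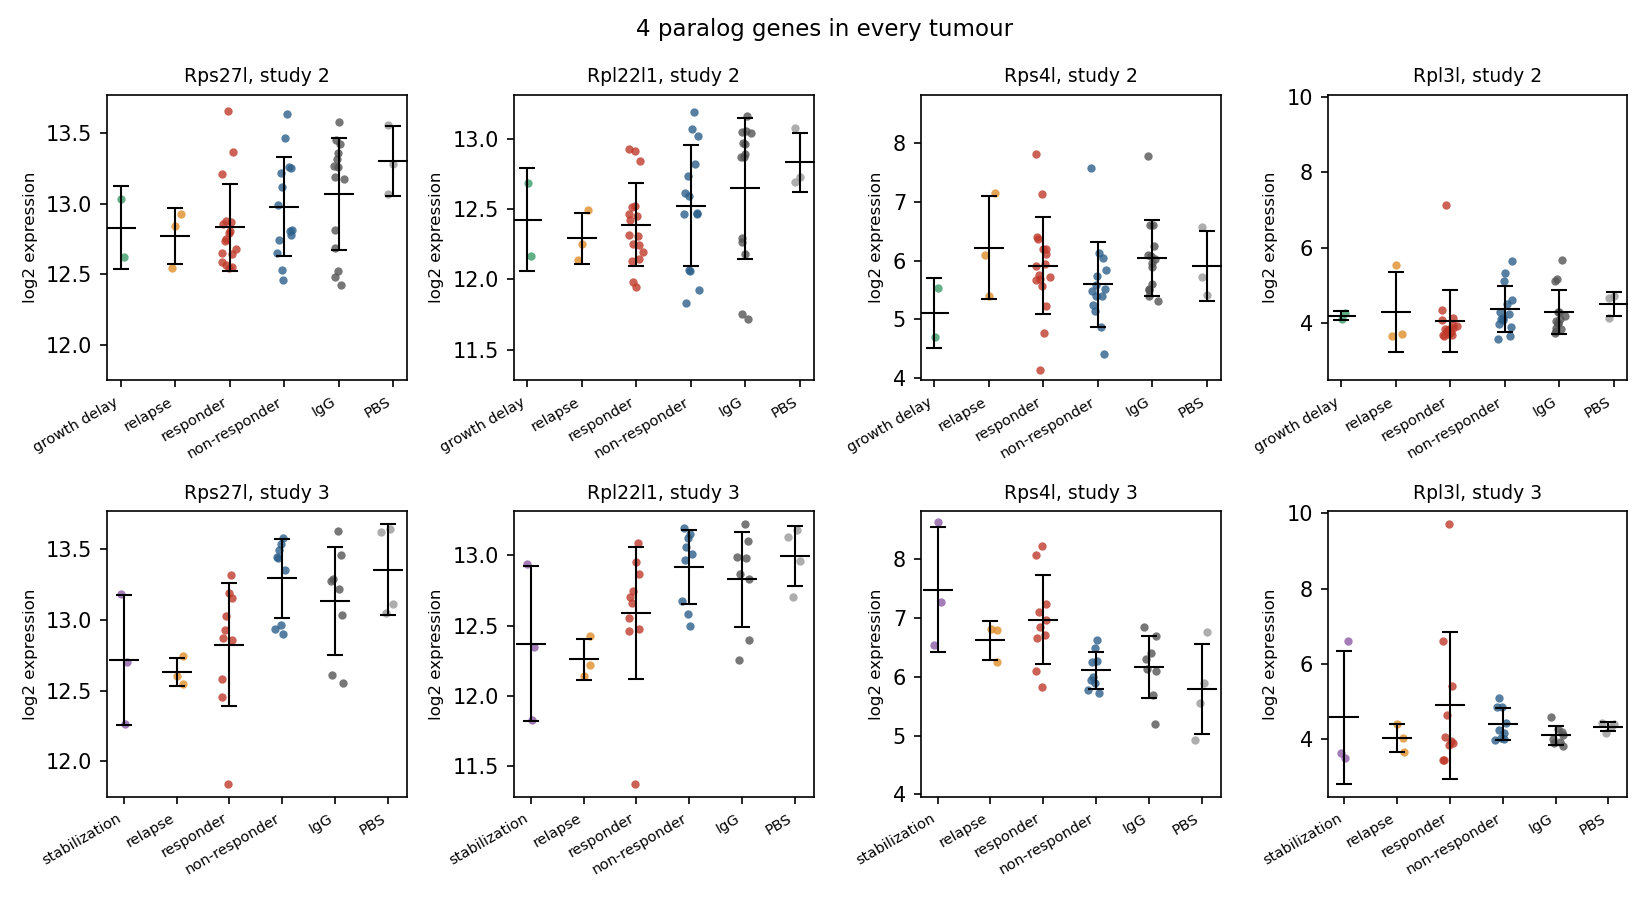
Log2 expression of Rps27l, Rpl22l1, Rps4l and Rpl3l in each tumour (points) by group, study 2 on top and study 3 below, with group mean and SD (bars). Rps4l has a responder median of 6.91 against 6.00 in non-responders of study 3, and Rpl3l has a single responder at 9.71.

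Other translation genes were examined from lists, whose counts stand beside 32.3% lower and 18.9% higher and a median of -0.06 over all genes. Of 76 mitochondrial ribosomal proteins, which build the separate ribosome of the organelle, 64 (84.2%) were lower and 0 higher in responders than non-responders, with a median of -0.31. Mrpl40 gave -0.27, Mrpl55 -0.29 and Mrpl47 -0.46. Of 19 elongation factors and other TOP messages, 12 (63.2%) were lower and 3 (15.8%) higher (median -0.14), with Eif3h at -0.31, Cct4 at -0.30 and Snhg1 at -0.78. Of 20 initiation factors, 9 (45%) were lower and 4 (20%) higher (median -0.06), with Eif3i at -0.25, Eif3m at -0.54 and Eif1a at -0.32. Of 40 ribosome biogenesis genes, 15 (37.5%) were lower and 1 (2.5%) higher (median -0.09), so the share lower was near that of all genes. Imp4 and Wdr12 gave -0.39 and -0.44, and Ubtf, a factor of rRNA transcription, gave 0.30. Of 15 genes of TOP regulation by mTORC1, 3 (20%) were higher, near the share of all genes, and 0 lower (median 0.12), namely Larp1 at 0.42, Eif4ebp2 at 0.25 and Tsc2 at 0.26. Fau, which encodes a ribosomal protein fused to a ubiquitin-like domain, gave -0.02 and did not pass.

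Markers of other cell types moved with the same comparison. In responders against non-responders, 9 of 10 macrophage genes, 10 of 10 fibroblast genes and 9 of 10 T cell genes were higher, and 6 of 14 melanocyte genes were lower. The mean of the macrophage list ran from 7.97 to 11.38 in study 2 responders (median 9.60) and from 7.83 to 11.44 in study 2 non-responders (median 8.84). In study 3 it ran from 9.32 to 11.48 in responders (median 10.39) and from 8.81 to 9.81 in non-responders (median 9.24). With the macrophage list as a covariate, 1 of the 50 members passed (Rps16), and the number of all genes that passed was 117, against 9319 without it. Rpl14 was then at -0.29 (limma adjusted p = 0.295) and Rps6 at -0.11 (limma adjusted p = 0.288). None of the 14 skeletal muscle genes passed, and with that list as a covariate 32 members passed. The macrophage list itself differed by outcome, so fits with it cannot tell macrophage content apart from outcome. The part of each cell type in the ribosomal protein differences was not tested.

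**Figure D5:**
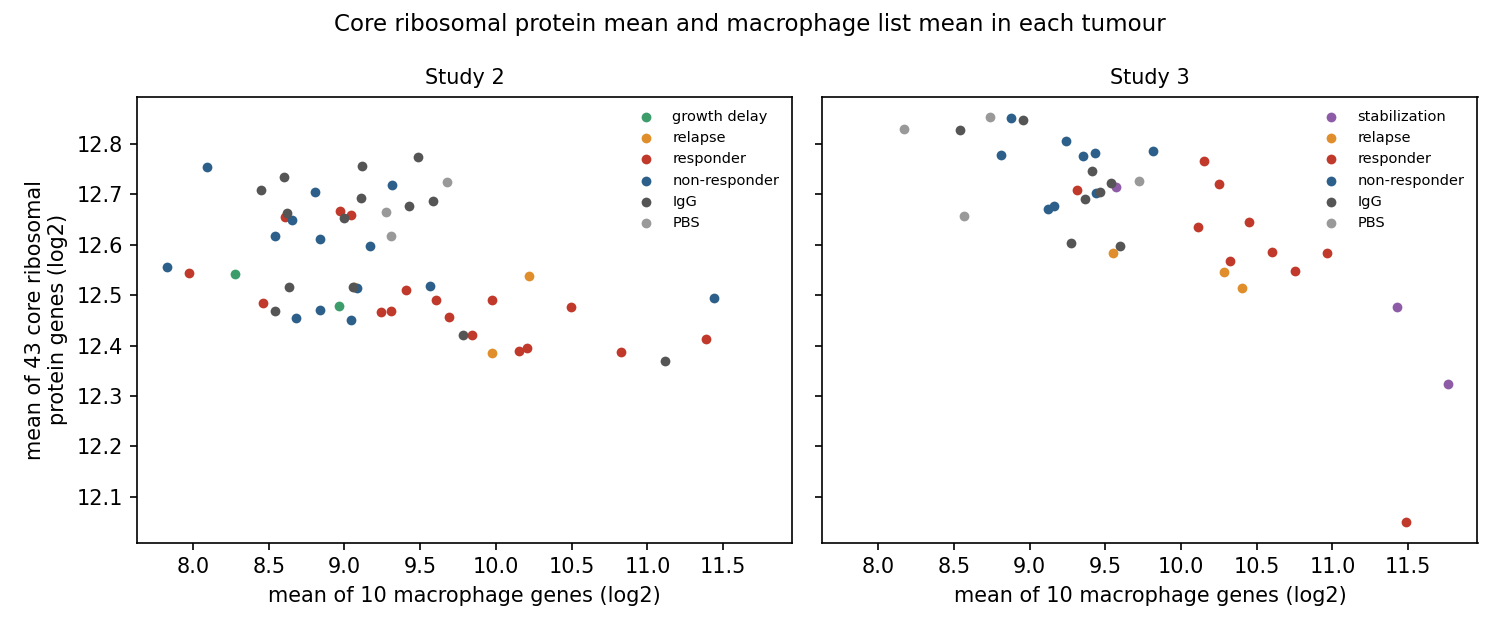
Mean log2 level of the 43 core genes (vertical) against the mean of 10 macrophage genes (horizontal) in each tumour of study 2 (left) and study 3 (right), coloured by group. Tumours with high macrophage means tend to lie low in core mean, down to the study 3 responder at 11.48 and 12.05, and in study 2 the points scatter widely.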

How the data were processed

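Total RNA (800 ng) of 90 tumours was amplified, biotin-labelled and hybridised to 3′ expression arrays of 45101 probe sets. The authors deposited log2 values, and RMA and limma are named per the submitters' processing notes without versions; the scanner files were not used here. Array medians ran from 5.71 to 5.90, and the number of arrays limits the precision. Of the probe sets, 34958 name 1 gene, 932 several and 9211 none in the platform annotation; the brightest single-gene probe set stood for each of 18194 genes. One limma model (version 3.58.1, R 4.3.3) held a mean for each of 12 study-by-outcome groups; contrasts were averaged over studies, 2-sided, and adjusted over all genes by Benjamini-Hochberg at 0.05. The fitting code was run on simulated data with independent normal noise for each gene. That run could not show how outlying tumours or genes that move together affect the calls. Members and gene lists were chosen with earlier results of these data known. Genes to name were, in each direction, the 8 called members that changed most against non-responders and IgG (5 in other comparisons), every non-core member, the 6 highest F values and 3 genes per list by p. Other core genes given as examples were chosen after their values were seen. Each tumour carries its own number in its title, and p-values measure the spread between tumours. Marker lists for B cells, endothelium, adipocytes and keratinocytes gave 2 of 9, 4 of 10, 5 of 7 and 1 of 10 genes higher in responders than non-responders, and 4 keratinocyte genes lower. Alternatives covered probe sets, normalization, array weights, an RNA quality covariate, dim genes, the threshold and left-out tumours; covariates for macrophage and muscle lists and the fit without study 3 responder replicate 4 were added after seeing the data.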

Additional observations from a re-analysis of the deposited data

Results flagged for a closer look

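Dixon's test over 14 quantities in 4 groups, 56 combinations in all, marked 4, where chance gives about 1 in 20. All 4 were study 3 responder replicate 4, whose group was tested for 14 quantities that share this tumour. Its core mean was 12.05 (nearest other responder 12.55), its Rps6 level 9.06 (nearest 9.99), its Rpl22l1 level 11.37 (nearest 12.46) and its Rpl3l level 9.71, the highest of the group (nearest 6.62). The same tumour had a skeletal muscle mean of 13.64 and a melanocyte mean of 6.65; their part in these values was not tested.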

How the results depend on the processing

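The core mean difference between responders and non-responders (-0.13) ranged from -0.24 to -0.10 under the 5 alternatives run for it: all probe sets, plain probe sets, quantile normalization, median centring and leaving out tumours low in melanocyte transcripts. Counts of members called moved as follows. For responder against non-responder (32), plain probe sets alone gave 18 of 27 tested, a threshold of 0.01 gave 19 and the macrophage covariate 1. In study 2 (1), the mean of all probe sets gave 2, plain probe sets 0, quantile normalization 0, median centring 19, array weights 28, leaving out dim genes 0, the 0.01 threshold 0, leaving out tumours low in melanocyte transcripts 11, non-responder replicate 14 2, the macrophage covariate 0, the muscle covariate 3, leaving out study 3 responder replicate 4 2 and fitting only the groups compared 0. In study 3 (21), these were plain probe sets 13, centring 42, threshold 5, low melanocyte tumours out 4, macrophage covariate 0, replicate 4 out 5 (22 without study 2 non-responder replicate 14) and only the groups compared 6. Against IgG (26), they were plain probe sets 15, centring 42, threshold 8, low melanocyte tumours out 10, macrophage covariate 0 and replicate 4 out 13. For relapse against non-responder (15), they were plain probe sets 8, quantile 3, centring 38, array weights 36, threshold 0, low melanocyte tumours out 25, macrophage covariate 0, replicate 4 out 23 and 0 to 8 without 1 relapse. Stabilization (0) gave 34 with array weights and 0 to 1 without 1 tumour, and IgG against PBS (0) gave 13 with array weights. Array weights called 63.3% of all genes in stabilization (68% of members) and 27% in IgG against PBS (26% of members). The F test (24) gave 44 with centring, 47 with array weights, 11 at 0.01 and 1 with the macrophage covariate. It called 64.9% of all genes with centring, 93.3% with array weights and 6.84% with the macrophage covariate. Centring called 53.3% of all genes in study 3, 51.3% against IgG and 43.1% in relapse against non-responder, where array weights called 58.4%. Where no share of all genes is given here or above, a count cannot be read as a result about the members. Rps4l turned to -0.20 over both studies and -0.19 in study 3 with the macrophage covariate, and Rps29 in study 3 to -0.022 with centring. The array weights did not reach their convergence tolerance. Except where the alternative tests fewer genes or samples, the cause was not tested. Bulk log2 values give no read depth. No paired analysis was possible because the labels give each tumour its own number and no replicate numbers.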
